A study of Mus musculus with 4 samples.

Results

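The 33 genes described here encode the pyruvate dehydrogenase complex and its kinases and phosphatases, pyruvate carboxylase and the malic enzymes, enzymes of the citric acid cycle, and the enzymes that tie the cycle to glutamate and aspartate. They were chosen by symbol, read from the gene identifier in the tables of the quantifier RSEM, and each was joined by its Ensembl identifier to the raw read counts. All 33 were present among the 55335 genes counted. A filter on low counts left 18661 genes for testing, 32 of the 33 among them. The remaining gene, the mitochondrial malic enzyme Me3, was near absent, with 1 and 4 reads in control and 5 and 3 with lactate.

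RNA-seq was performed on AB2.2 mouse ESCs, an established line, from which 2 libraries were made without treatment (control) and 2 after 24 h of culture in 50 mM lactate. Both groups were grown on mouse embryonic fibroblast (MEF) feeders in serum medium with leukemia inhibitory factor, the GSK3 inhibitor CHIR99021 and the MEK inhibitor PD0325901. The gene counts summed to 18067562 and 19077885 reads for control and to 18542554 and 18948861 for lactate. The labels do not say that the libraries of a group came from separate cultures, so the p-values measure the spread between these libraries, which may be technical. An exact two-sided permutation test of 2 libraries against 2 cannot give a p below 0.333, and the tests below therefore rest on a model fitted across all genes.

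Pyruvate dehydrogenase, a large complex in the mitochondrial matrix, turns pyruvate into acetyl-CoA. It is switched off when pyruvate dehydrogenase kinases phosphorylate its alpha subunit and switched on again by phosphatases. The citric acid cycle oxidizes the acetyl group, and pyruvate carboxylase, malic enzymes and the glutamate enzymes add carbon to the cycle or take it out. Lactate enters this system as pyruvate after its oxidation by lactate dehydrogenase, and mouse ESCs are known for a high rate of glycolysis together with active mitochondrial oxidation of pyruvate and glutamine.

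None of the 32 members tested was called at an adjusted p under 0.05 and more than 2-fold change, the thresholds of the study, applied here to the edgeR fit, in which 168 of the 18661 genes passed both (0.900%). None reached an adjusted p under 0.05 at any size of change, against 185 genes (0.991%). By the quasi-likelihood test of edgeR, 1 member was higher and 3 were lower with lactate at an unadjusted p under 0.05. The member that was higher is Pdhb, or 3.12% of the members tested, against 11.7% of all genes. The 3 that were lower are Pdha1, Pdk2 and Pdp2, or 9.38% of the members tested, against 11.4% of all genes. DESeq2 also gave no member an adjusted p under 0.05, where 846 of 32923 genes had one. It left Pdhb and Pdk2 at an unadjusted p under 0.05, or 6.06% of the members against 8.70% of all genes. With a replicate block in edgeR, however, 16 of the 32 members had an adjusted p under 0.05, where 8297 of 18661 genes did. At an unadjusted p under 0.05 that fit held 56.2% of the members against 51.2% of all genes. With no filter on low counts Pdk2 had an adjusted p under 0.05 (0.0358 by edgeR), where 1647 of 32923 genes did.

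The whole set was centred near no change. Of the 32 members, 15 had a log2 fold change above 0 and 17 below, and 51.03% of all genes tested were above 0. The median log2 fold change was -0.03 for the members and 0.01 for all genes tested. The median size of the change, regardless of sign, was 0.16 on the log2 scale for the members and 0.28 for all genes. The largest increase was 0.56, in Pdhb, and the largest decrease was 0.86 on the same log2 scale, in Pdk2. The members are expressed well above the typical gene, with a median control level of 60.6 FPKM against 5.63 FPKM (fragments per kilobase of transcript, scaled to the library's depth), and their changes were measured more precisely, with a median standard error of 0.14 on the log2 scale against 0.21.

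Measured against the spread between these libraries, which may be technical, most members had narrow intervals. The 95% confidence interval of the log2 fold change, unadjusted for the number of genes, lay within a 2-fold change in either direction for 30 of the 32 members tested (93.8%), against 63.6% of all genes. The exceptions were Pdhb, with an upper limit of 1.01, and Pdk2, with a lower limit of -1.46. The libraries of the groups did not overlap in read counts scaled to library depth (CPM) for 7 members that were higher with lactate (21.9%, against 27.0% of all genes) and 10 that were lower (31.2%, against 25.9%). In 19 of the 32 members tested, the libraries of at least 1 group differed from each other by more than the group means did. The same count over all genes was not made.

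**Figure D1:**
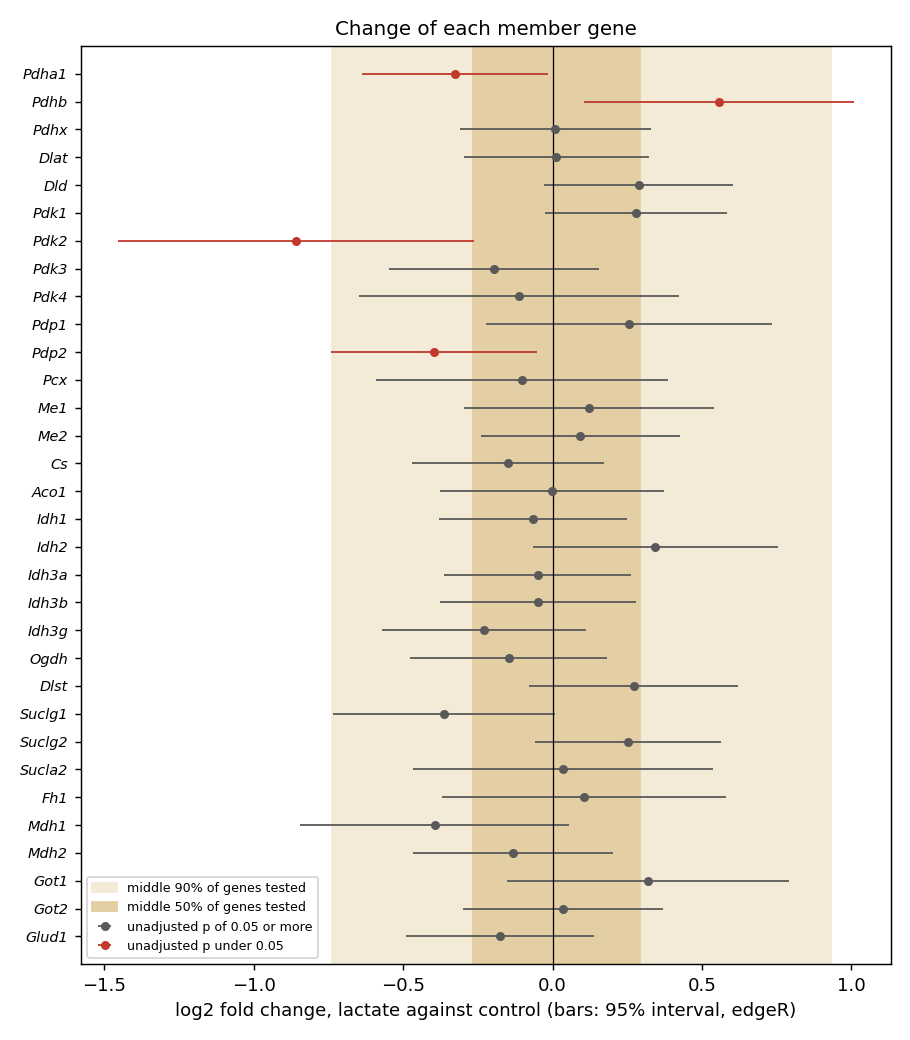
Log2 fold change of each of the 32 members tested, lactate against control, with its 95% interval from edgeR, over bands that hold the middle 50% and 90% of all genes tested. Red marks the 4 members at an unadjusted p under 0.05, which are Pdha1, Pdhb, Pdk2 and Pdp2, and the intervals of the other members cross 0.

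The promoters of the 4 members at an unadjusted p under 0.05 are shown, since these genes have the smallest p-values of the set. Each window is on GRCm38.p6, runs 5′ to 3′ on the strand of the gene and covers bases 250 to 51 before the start that RefSeq gives. Capitals mark the letters ACGTG, the core of the hypoxia response element, on either strand, or CACGTG, the E-box, which contains them. The windows are chr14:8173043-8173242 on the minus strand for Pdhb, chrX:160138481-160138680 on the minus strand for Pdha1, chr11:95041422-95041621 on the minus strand for Pdk2, at the first of its 2 starts, and chr8:104591222-104591421 on the plus strand for Pdp2.
Pdhb: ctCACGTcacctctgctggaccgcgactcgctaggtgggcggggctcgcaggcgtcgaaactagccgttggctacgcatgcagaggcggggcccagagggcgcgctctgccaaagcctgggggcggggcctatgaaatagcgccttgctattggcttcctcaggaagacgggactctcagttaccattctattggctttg
Pdha1: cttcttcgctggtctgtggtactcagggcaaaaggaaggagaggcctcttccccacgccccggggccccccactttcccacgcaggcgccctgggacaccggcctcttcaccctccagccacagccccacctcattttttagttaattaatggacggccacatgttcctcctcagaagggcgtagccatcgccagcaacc
Pdk2: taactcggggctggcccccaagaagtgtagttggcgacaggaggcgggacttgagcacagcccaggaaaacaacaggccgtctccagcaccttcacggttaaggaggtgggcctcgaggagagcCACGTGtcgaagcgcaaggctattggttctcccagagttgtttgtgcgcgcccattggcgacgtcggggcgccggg
Pdp2: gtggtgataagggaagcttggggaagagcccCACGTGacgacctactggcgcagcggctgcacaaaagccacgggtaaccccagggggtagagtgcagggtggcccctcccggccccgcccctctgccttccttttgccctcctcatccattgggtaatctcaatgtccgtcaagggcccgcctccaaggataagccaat

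All 4 windows are rich in G and C, from 61% in Pdha1 to 62.5% in Pdhb and Pdk2. The E-box begins 126 bases before the start of Pdk2 and 219 bases before that of Pdp2, and in Pdhb the shorter core begins 248 bases before the start. No such letters are in the Pdha1 window. RefSeq promoters (250 bases before to 50 after the start) were at hand for 30 members, with 40 promoters in all, and were searched on both strands. ACGTG was found in 35% of the members' promoters and in 19.6% of all 32851 promoters. CACGTG was found in 15% and 7.15%, and its members were Ogdh, Pcx, Pdk2 and Pdp2. TTGCATCA, the C/EBP-ATF response element, was found in 2.5% of the members' promoters, that of Got1, against 0.895% of all promoters. GCGCATGC (NRF1) was in 7.5% of the members' promoters, those of Glud1 and Ogdh, against 2.71% of all. AAGGTCA (estrogen-related receptors) was in 5%, those of Got1 and Ogdh, against 4.72%, and CCGGAAGT (ETS factors) in 2.5%, that of Dlst, against 3.89%. These matches describe the letters of the windows and no factor was measured here.

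The subunits of the pyruvate dehydrogenase complex stood first in the pathway, and of the 5 subunits 4 had a log2 fold change above 0 and 1 below, with a median of 0.01. Pdha1 and Pdhb encode the alpha and beta subunits of the decarboxylase that starts the reaction, and the protein is built from both. Pdha1 (chrX:160122209-160138413, minus strand) had 5140 and 5824 reads in control and 4529 and 4690 with lactate. These are 297 and 307 CPM in control and 244 and 238 CPM with lactate. Both lactate libraries were thus below both controls, and the spread within each group was small beside the gap. The mean was 302 ± 6.88 CPM in control and 241 ± 4.17 CPM with lactate (SD, n = 2), with a log2 fold change of -0.33 (SE 0.13) and an adjusted p of 0.198 by edgeR. Exons of Map3k15 on the opposite strand overlap those of Pdha1 over 603 bases, and whether the counting used strand is not given in the sources used here. Map3k15 had 1210 and 1118 reads in control and 1209 and 1203 with lactate.

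Pdhb (chr14:8165996-8173025, minus strand) lay on the other side of 0. It had 1815 and 2153 reads in control and 2498 and 3690 with lactate, or 105 and 113 CPM against 134 and 187 CPM. The groups did not overlap, but the second lactate library stood well above the first. The mean was 109 ± 6.02 CPM in control and 161 ± 37.2 CPM with lactate, with a log2 fold change of 0.56 (SE 0.19), an unadjusted p of 0.0229 and an adjusted p of 0.153 by edgeR. Without the second lactate library the log2 fold change was 0.30, with an unadjusted p of 0.227 by edgeR, and without the first it was 0.75, with an adjusted p of 0.0432. The pseudogene Gm6123 matches Pdhb at 97.03% over 1079 bases, and its reads, 102 and 129 in control and 128 and 180 with lactate, were few beside those of Pdhb. How reads matching both were assigned was not tested. On the RSEM expected counts, which share out reads with several matches, the log2 fold change of Pdhb was 0.52.

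The ratio of Pdhb to Pdha1 in FPKM, a ratio chosen after the values were seen, was 0.494 and 0.585 in control and 0.788 and 1.18 with lactate. The ratio was therefore higher in both lactate libraries, with most of the spread again from the second. Dld, the dihydrolipoamide dehydrogenase that pyruvate dehydrogenase shares with oxoglutarate dehydrogenase and the branched-chain complex, had 79.0 and 72.0 CPM in control and 95.1 and 89.3 CPM with lactate. Its groups did not overlap, and its log2 fold change was 0.29 (SE 0.13, adjusted p of 0.251 by edgeR). Dlat, the acetyltransferase that forms the core of the complex, and Pdhx, which anchors Dld to that core, had between 95.04 and 104 CPM and between 41.4 and 44.2 CPM over the 4 libraries, with a log2 fold change of 0.01 each and standard errors of 0.13. Their directions turned under DESeq2, to -0.01 for both, and they cannot be called higher or lower.

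**Figure D2:**
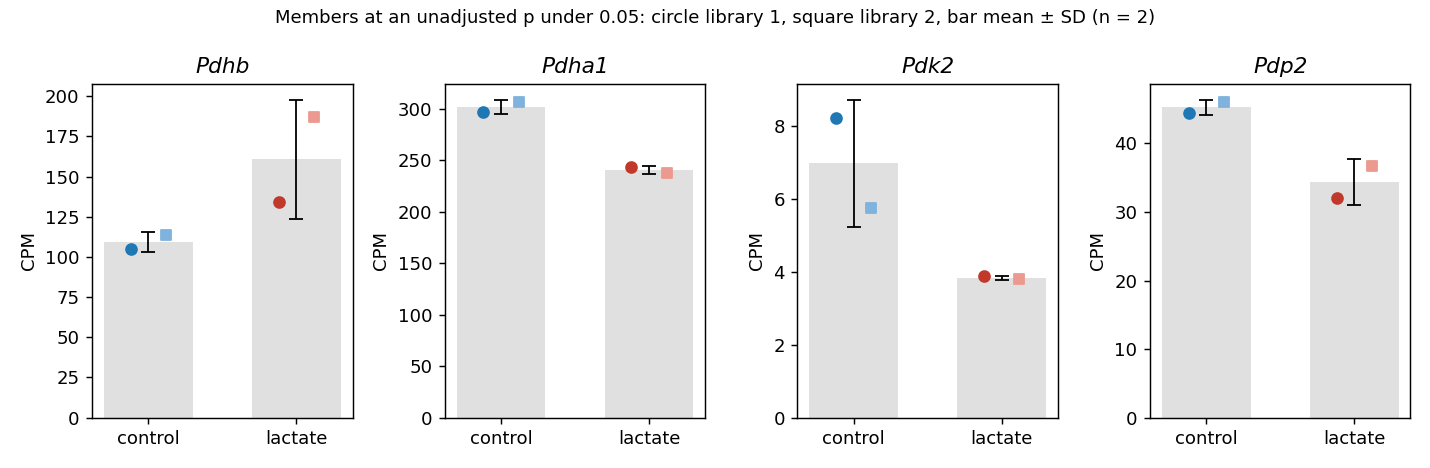
CPM of Pdhb, Pdha1, Pdk2 and Pdp2 in each library (circle, first library, and square, second library), with bars at the mean and error bars of 1 SD over the 2 libraries of a group. The libraries of the groups do not overlap in any of the 4 genes. In absolute CPM, not relative to level, the widest gap within a group is between the lactate libraries of Pdhb, at 134 and 187 CPM.

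The kinases and phosphatases set how much of the complex is active. Of the 4 kinases, 1 had a log2 fold change above 0 and 3 below, with a median of -0.15. Pdk2 (chr11:95026258-95041354, minus strand), a widely expressed kinase, was the member with the largest change. It had 142 and 109 reads in control and 72 and 75 with lactate, or 8.21 and 5.74 CPM against 3.87 and 3.80 CPM. The lactate libraries nearly coincided, and both were below the lower control, while the controls differed from each other by more than the lower control differed from the lactate libraries. The mean was 6.98 ± 1.74 CPM in control and 3.84 ± 0.0505 CPM with lactate, with a log2 fold change of -0.86 (SE 0.25), an unadjusted p of 0.0121 and an adjusted p of 0.119 by edgeR. The log2 fold change was -0.60 without the first control library and -1.10 without the second, and the unadjusted p passed 0.05 only when the first control library was kept. Its standard error was the highest among the members.

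Pdk1, the kinase known as a target of hypoxia-inducible factor, had 76.7 and 72.3 CPM in control and 88.1 and 92.6 CPM with lactate. Its groups did not overlap, and its log2 fold change was 0.28 (SE 0.13, adjusted p of 0.251 by edgeR). Pdk3 had 50.7 and 43.2 CPM in control and 42.1 and 39.7 CPM with lactate, a log2 fold change of -0.20 that was not past the test and ranged from -0.31 to -0.10 with a library left out. Pdk4, the kinase known for its induction in fasting, overlapped between the groups in CPM (8.21 and 6.32 against 7.26 and 6.18). Its FPKM, from RSEM, was 2.45 and 1.87 in control and 3.78 and 2.63 with lactate, so its direction depends on the measure and none is given.

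Of the phosphatases, Pdp2 (chr8:104591451-104599026, plus strand) was lower with lactate. It had 769 and 874 reads in control and 595 and 724 with lactate, or 44.5 and 46.1 CPM against 32.0 and 36.7 CPM. The control libraries lay close together and above both lactate libraries. The mean was 45.3 ± 1.13 CPM in control and 34.4 ± 3.32 CPM with lactate, with a log2 fold change of -0.40 (SE 0.14), an unadjusted p of 0.0300 and an adjusted p of 0.171 by edgeR. Pdp1, the calcium-stimulated phosphatase, had 5.90 and 7.12 CPM in control and 7.96 and 7.60 CPM with lactate, without overlap, and a log2 fold change of 0.26 (SE 0.20, adjusted p of 0.487 by edgeR) that ranged from 0.11 to 0.39 with a library left out.

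Within the kinase family the levels per length can be set beside one another. Pdk3 and Pdk1 made up most of the summed kinase FPKM in every library, and the sum was 57.4 and 50.8 FPKM in control and 60.1 and 53.4 FPKM with lactate. The share of Pdk1 was 38.8% and 43.8% in control and 49.6% and 47.1% with lactate. The share of Pdk3 was 49.2% and 46.8% in control and 40.6% and 44.5% with lactate. By FPKM Pdk3 was thus the leading kinase in both control libraries and Pdk1 in both lactate libraries, while neither kinase passed the test on counts. In the second lactate library the lead was small, at 25.15 FPKM for Pdk1 against 23.74 for Pdk3. The FPKM of Pdk1 was 29.8 in the first lactate library, above the second, while its CPM was higher in the second (88.1 and 92.6). The share of Pdk2 was 7.72% and 5.69% in control and 3.45% and 3.43% with lactate, and that of Pdk4 lay between 3.68% and 6.29% over all libraries. These shares come from 2 libraries a group and carry no test.

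**Figure D3:**
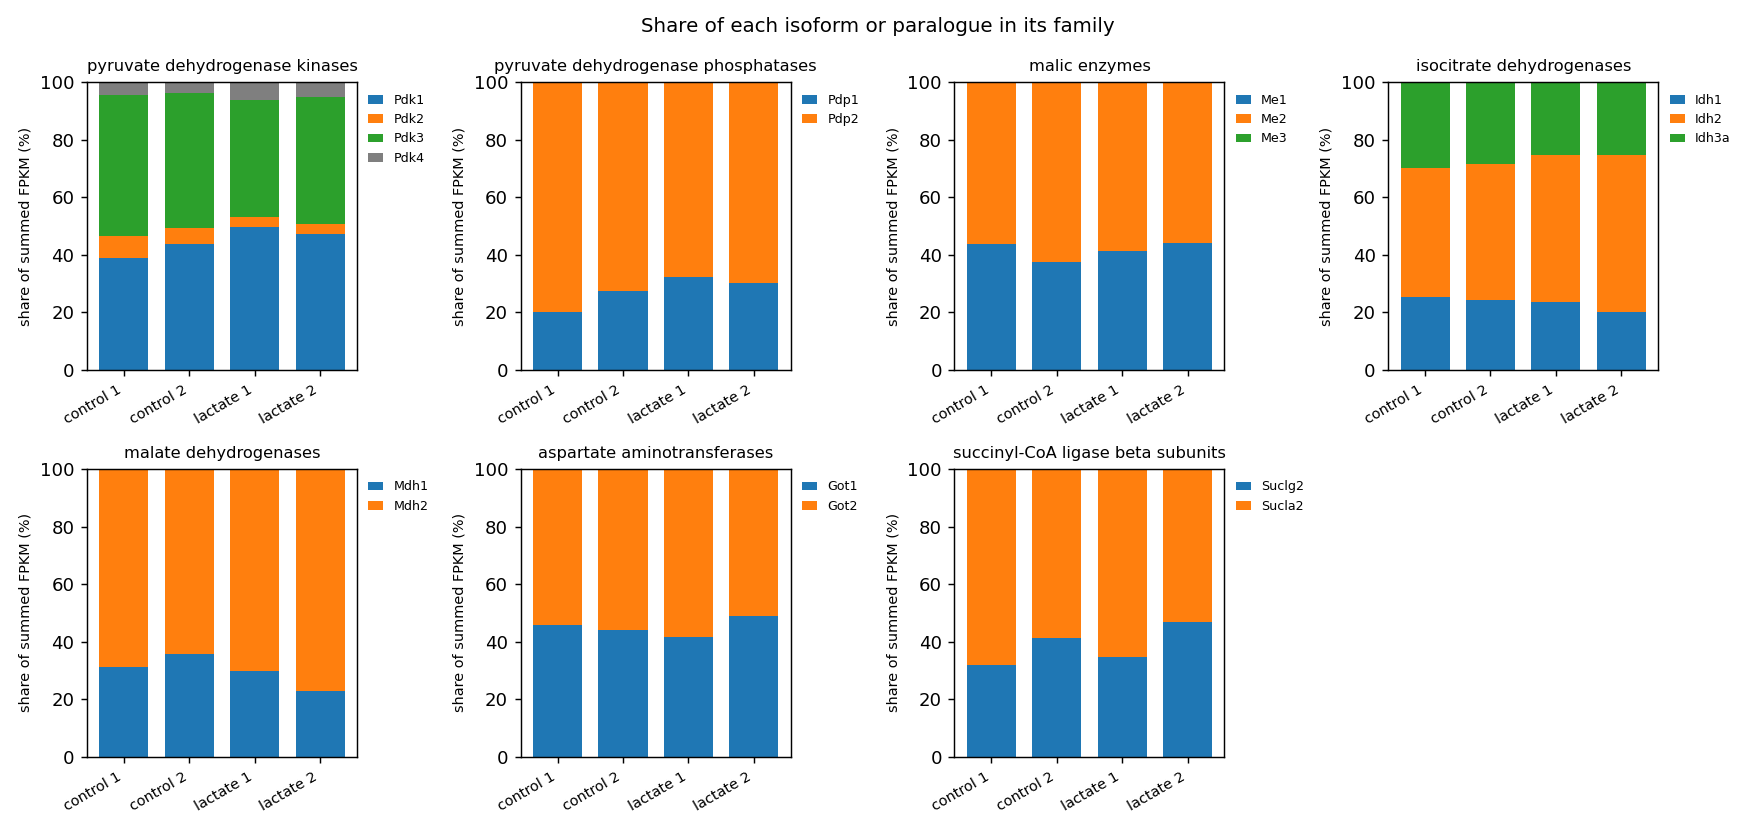
Share of each isoform or paralogue in the summed FPKM of its family, as stacked bars for the 2 control and 2 lactate libraries. Pdk1 (blue, kinases) takes 38.8% and 43.8% of the kinase sum in control and 49.6% and 47.1% with lactate. The sum for the isocitrate dehydrogenases holds Idh1, Idh2 and Idh3a, without Idh3b and Idh3g. Of that sum Idh2 (orange) takes 44.9% and 47.4% in control and 51.3% and 54.6% with lactate.

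Pyruvate carboxylase and the malic enzymes exchange carbon between pyruvate and the acids of the cycle. They held no gene at an unadjusted p under 0.05, against 11.7% of all genes higher and 11.4% lower. They also held no tested gene without overlap, against 27.0% of all genes higher and 25.9% lower. The largest change among them was that of Me1, the cytosolic malic enzyme that makes NADPH, with 1616 and 1428 reads in control and 1882 and 1626 with lactate, or 93.4 and 75.3 CPM against 101 and 82.4 CPM (log2 fold change 0.12, SE 0.17, adjusted p of 0.727 by edgeR). The first library was above the second in both groups. Pcx, which makes oxaloacetate from pyruvate, had 36.3 and 49.1 CPM in control and 35.2 and 44.5 CPM with lactate, with the second library above the first in both groups. The mitochondrial Me2 had a log2 fold change of 0.09, and Me3 stayed at or below 0.17 FPKM in every library. The malic enzyme message was therefore shared by Me1 and Me2, with Me2 at 56.2% and 62.2% of the family in control and 58.4% and 55.7% with lactate.

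In the first steps of the cycle, 1 of 7 genes had a log2 fold change above 0 and 6 below, with a median of -0.05. None was at an unadjusted p under 0.05, against 11.7% of all genes higher and 11.4% lower. The gene above 0 was Idh2, the mitochondrial isocitrate dehydrogenase that makes NADPH. It had 2481 and 3383 reads in control and 3466 and 4380 with lactate, or 143 and 178 CPM against 186 and 222 CPM. The groups did not overlap, though the higher control and the lower lactate library were close. The mean was 161 ± 24.6 CPM in control and 204 ± 25.2 CPM with lactate, with a log2 fold change of 0.34 (SE 0.17, adjusted p of 0.283 by edgeR). It was 0.18 without the first control library and 0.50 without the second.

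The other genes of these steps had smaller changes. Cs, the citrate synthase, had 311 and 326 CPM in control and 276 and 298 CPM with lactate, without overlap and with a log2 fold change of -0.15. The NAD-dependent isocitrate dehydrogenase of the cycle is built from the products of Idh3a, Idh3b and Idh3g. Idh3a, with 143 and 152 CPM in control and 138 and 147 CPM with lactate, and Idh3b, with 133 and 146 against 128 and 142 CPM, each had a log2 fold change of -0.05. Idh3g, with 156 and 135 CPM in control and 130 and 119 CPM with lactate, had -0.23 (SE 0.14, adjusted p of 0.380 by edgeR), with a range of -0.33 to -0.14 when a library was left out. Scaling by library totals alone turned the direction of Idh3a and Idh3b. The cytosolic enzymes Idh1 and Aco1, the latter an aconitase that also serves as an iron sensor, had log2 fold changes of -0.07 and -0.0027 and overlapped between the groups.

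Relative to Idh1 and Idh3a, Idh2 took a larger share of the FPKM with lactate, in a sum that leaves out Idh3b and Idh3g. Its share of the sum of Idh1, Idh2 and Idh3a was 44.9% and 47.4% in control and 51.3% and 54.6% with lactate. That of Idh3a was 29.7% and 28.4% in control and 25.1% and 25.3% with lactate, and that of Idh1 was 25.4% and 24.2% against 23.6% and 20.1%. The order of the libraries was the same for the ratio of Idh2 to Idh3a, 1.51 and 1.67 in control and 2.04 and 2.16 with lactate, which was chosen after the values were seen.

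The next steps convert oxoglutarate to succinate by way of succinyl-CoA. Of 5 genes, 3 had a log2 fold change above 0 and 2 below, with a median of 0.04. None was at an unadjusted p under 0.05, against 11.7% of all genes higher and 11.4% lower. The largest change was that of Suclg1, the alpha subunit that both forms of succinyl-CoA ligase share. It had 1226 and 1567 reads in control and 1014 and 1278 with lactate, or 70.9 and 82.6 CPM against 54.5 and 64.8 CPM, without overlap (log2 fold change -0.36, SE 0.15, unadjusted p of 0.0547 and adjusted p of 0.227 by edgeR). Its partner Suclg2, the GTP-specific beta subunit, had 121 and 131 CPM in control and 148 and 154 CPM with lactate, also without overlap (log2 fold change 0.25, SE 0.13, adjusted p of 0.297 by edgeR). Partners of 1 enzyme thus lay on opposite sides of 0, as Pdha1 and Pdhb did, and the FPKM ratio of Suclg2 to Suclg1, a ratio chosen after the values were seen, was 0.650 and 0.607 in control and 0.986 and 0.887 with lactate. Sucla2, the ATP-specific beta subunit, had 115 and 88.6 CPM in control and 121 and 87.6 CPM with lactate, so its libraries differed within the groups far more than between them.

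Ogdh and Dlst encode the decarboxylase and the core of the oxoglutarate dehydrogenase complex. Ogdh had 211 and 208 CPM in control and 202 and 177 CPM with lactate, a log2 fold change of -0.15. Dlst had 131 and 152 CPM in control and 163 and 180 CPM with lactate, a log2 fold change of 0.27 (SE 0.14, adjusted p of 0.317 by edgeR). With a library left out, the log2 fold change of Ogdh ranged from -0.27 to -0.06 and that of Dlst from 0.15 to 0.38. Both pairs of groups were without overlap, in opposite directions, and neither gene passed the test.

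Fumarase and the malate dehydrogenases close the cycle, and of these 3 genes 1 had a log2 fold change above 0 and 2 below. Mdh1, the cytosolic malate dehydrogenase of the malate-aspartate shuttle, had 1855 and 2810 reads in control and 1703 and 2025 with lactate. In CPM these are 107 and 148 against 91.6 and 103, so the groups did not overlap, but the controls differed by more than the group means. The log2 fold change was -0.39 (SE 0.19, adjusted p of 0.266 by edgeR), and it was -0.63 without the first control library and -0.15 without the second. Mdh2, the mitochondrial enzyme, had 259 and 291 CPM in control and 242 and 259 CPM with lactate, a log2 fold change of -0.13. Fh1, the fumarase, had 0.11 with 84.6 and 114 CPM in control and 94.6 and 119 CPM with lactate. The share of Mdh1 in the FPKM of the malate dehydrogenases was 31.1% and 35.7% in control and 29.8% and 22.8% with lactate. The FPKM of Mdh1 was 94.3 in the first lactate library and 70.6 in the second, while its CPM was higher in the second. The order of the lactate libraries thus depends on the measure.

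The glutamate enzymes held no gene at an unadjusted p under 0.05, against 11.7% of all genes higher and 11.4% lower. Got1, the cytosolic aspartate aminotransferase, had 2560 and 3603 reads in control and 3392 and 4718 with lactate, or 148 and 190 CPM against 182 and 239 CPM. In CPM the second library was above the first in both groups, and the groups overlapped (log2 fold change 0.32, SE 0.20, adjusted p of 0.378 by edgeR). Its FPKM was 120 and 113 in control and 140 and 138 with lactate. By that measure the second library was below the first in both groups, and the groups did not overlap. The log2 fold change of Got1 ranged from 0.11 without the second lactate library to 0.50 without the second control library. Glud1, the glutamate dehydrogenase and the member with the most reads, had 379 and 393 CPM in control and 342 and 341 CPM with lactate, without overlap (log2 fold change -0.18, SE 0.13, adjusted p of 0.467 by edgeR). Got2, the mitochondrial aminotransferase, had a log2 fold change of 0.03. Its FPKM was 198 in the first lactate library and between 143 and 144 in the other libraries, while its CPM was 237 in that library and 240 in the second lactate library. RSEM assigned to Got2 115.4% of the reads of the count table, against a median of 81.07% over genes, and Got2-ps1 and Gm10874 match it at 99.15% over 1293 bases and 98.78% over 1637 bases. These copies had at most 63 reads in any library. Exons of Gm45760 on the opposite strand overlap those of Got2 over 434 bases, and Gm45760 had 1072 and 974 reads in control and 1438 and 1004 with lactate, the most in the library where the FPKM of Got2 was 198. The Got2 value is uncertain where reads were divided among these genes, and their part in it was not tested. Me1 (Gm7049 and Gm48795), Suclg2 (Gm15163) and Glud1 (Glud-ps) also have copies at 97% identity or more over at least 500 bases, with at most 41 reads in any library.

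**Figure D4:**
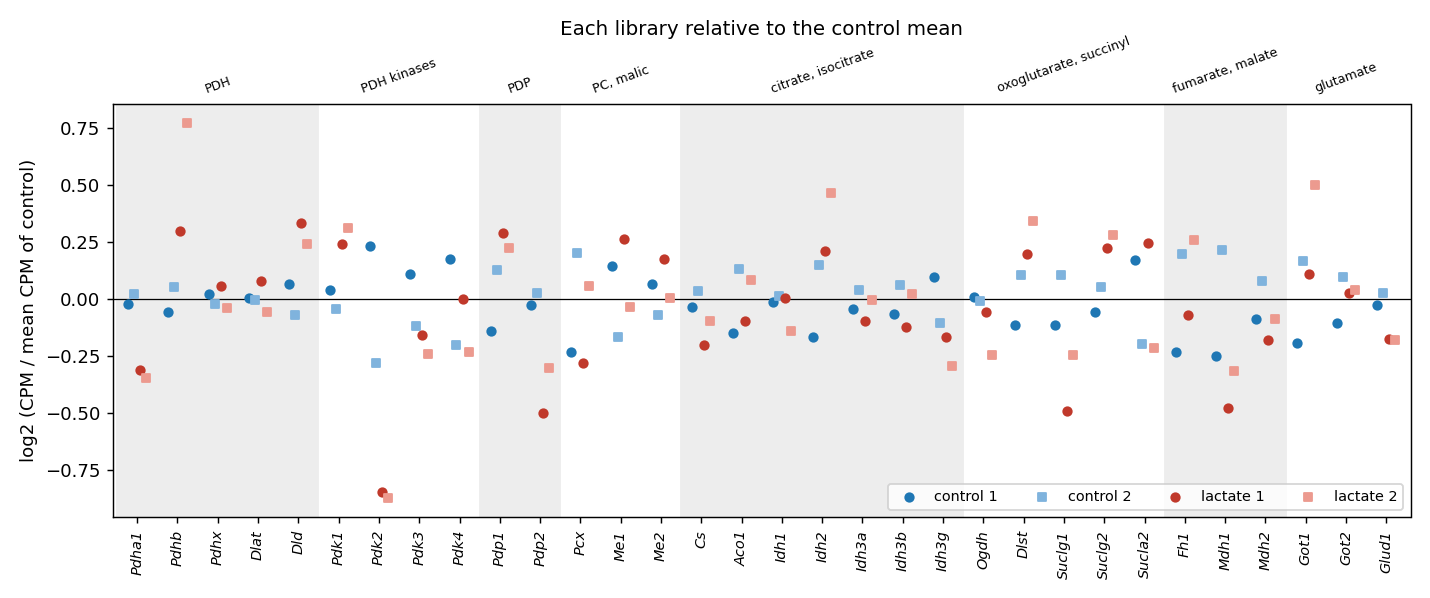
Each library of each of the 32 members tested, as the log2 of its CPM over the control mean, with circles for the first and squares for the second library of each group and grey bands for groups of enzymes by role. Pdk2 lies lowest and Pdhb in the second lactate library lies highest, and in many members, such as Fh1, Got1 and Sucla2, the symbols of the first and second libraries separate within both groups.

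Many members differed between the first and the second library in the same sense in both groups. In 16 of the 32 tested the second library was above the first in CPM in control and with lactate, and in 11 it was below in both. The same count over all genes was not made. Over all genes tested, the deviations of same-numbered libraries from their group means correlated at 0.561, so the pattern is not particular to the members. Reads from genes of the mitochondrial genome made up 5.48% and 2.43% of the gene counts in control and 5.72% and 2.82% with lactate, so that the libraries numbered 1 in each group were alike in this measure as well. Its part in the members' values was not tested. With these genes left out, the same 4 members and Suclg1 were at an unadjusted p under 0.05, or 15.6% of the members against 23.2% of all genes.

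Enzymes of the cytosol and their mitochondrial counterparts each lay on both sides of 0, and the difference between the compartments was not tested. Of the 5 cytosolic enzymes Aco1, Idh1, Mdh1, Me1 and Got1, 2 had a log2 fold change above 0 and 3 below, with a median of -0.0027. Of the 7 mitochondrial counterparts tested, 3 were above 0 and 4 below, with a median of -0.05.

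The order of the members by level was dominated by a few abundant enzymes. In control, Mdh2 was the most abundant at 241 ± 24.0 FPKM, higher than 98.0% of the genes tested. It was followed by Idh3g at 147 ± 17.4, Got2 at 143 ± 0.559, Pdha1 at 142 ± 2.13, Mdh1 at 122 ± 29.6, Cs at 122 ± 7.72, Idh2 at 121 ± 19.2, Got1 at 117 ± 4.72, Glud1 at 115 ± 8.78 and Idh3b at 103 ± 9.66 FPKM. Mdh2 stood above the next gene by more than the spread of either. From Idh3g to Glud1, neighbours in this order differed by less than the larger of their SDs. Pdhb, at 76.6 ± 10.3 FPKM in control, reached 119 ± 35.6 FPKM with lactate.

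A middle group ran from Idh3a at 75.9 FPKM through Sucla2 (72.0), Dlst (65.3), Suclg1 (65.2), Idh1 (64.8) and Ogdh (56.4) to Fh1 (44.8), Me2 (41.8), Suclg2 (40.9), Dlat (34.0) and Dld (33.9) in the control mean. Me1, Pdk3, Aco1, Pdhx and Pdk1 lay between 29.1 and 22.3 FPKM. The regulators of pyruvate dehydrogenase other than Pdk1 and Pdk3 were near the bottom, with Pdp2 at 8.59, Pdk2 at 3.66, Pdp1 at 2.73 and Pdk4 at 2.16 FPKM, and Pcx stood at 11.2 FPKM. Me3 was listed at 0 in the first control library. Summed over the 33 members, the level was 2116 and 2281 FPKM in control and 2249 and 2297 FPKM with lactate, and the lower lactate sum was below the higher control sum.

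**Figure D5:**
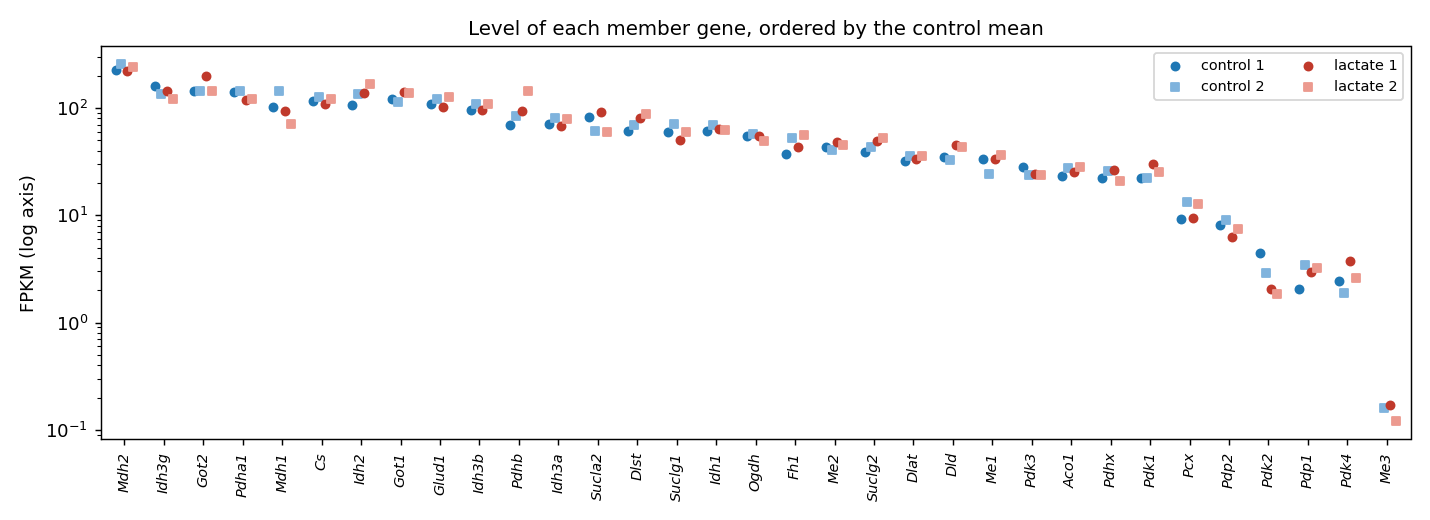
FPKM of each member in each library on a log axis, ordered by the control mean from Mdh2 at 241 FPKM down to Me3. Me3 in the first control library was listed at 0 and has no point, and the levels within a gene lie close together beside the range across genes.

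The other genes of these pathways, in lists chosen with earlier results of these data known, allow the members to be placed. Of 14 other genes of the citric acid cycle and hydroxyglutarate metabolism, all tested, 8 had a log2 fold change above 0 and 6 below, with a median of 0.08, and 1 was higher and 0 lower at an unadjusted p under 0.05, thresholds that 11.7% and 11.4% of all genes passed. That gene was Sdhaf3, an assembly factor of succinate dehydrogenase, with 61 and 53 reads in control and 118 and 115 with lactate (log2 fold change 0.95, SE 0.22, adjusted p of 0.0841 by edgeR). The next was Sdhd, a membrane anchor of the same enzyme, at -0.60 (SE 0.25, adjusted p of 0.219 by edgeR), which ranged from -0.89 to -0.28 with a library left out.

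Pyruvate and oxoglutarate dehydrogenase need lipoate and thiamine diphosphate as cofactors. The list for these cofactors held 10 genes and included Pdpr, a regulatory subunit of pyruvate dehydrogenase phosphatase, which is not a cofactor gene (log2 fold change 0.17). Of the 10, 4 were above 0, with Pdpr among them, and 6 below, with a median of -0.07. At an unadjusted p under 0.05, 2 of the 10 were higher, against 11.7% of all genes. Lias, the lipoate synthase, had 40.1 ± 2.52 CPM in control and 55.0 ± 6.03 CPM with lactate (log2 fold change 0.46, adjusted p of 0.141 by edgeR). None of the 10 passed the adjusted threshold.

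Of 10 mitochondrial carriers of pyruvate, citrate, malate, aspartate and glutamate, 9 were tested, and 4 were above 0 and 5 below. None was at an unadjusted p under 0.05, against 11.7% of all genes higher and 11.4% lower. Those with the smallest p were the glutamate carrier Slc25a22, with a log2 fold change of -0.28, and the citrate carrier Slc25a1, with -0.25 (adjusted p of 0.321 and 0.355 by edgeR). Of the 5 genes of the branched-chain ketoacid dehydrogenase, which shares Dld, 2 were above 0 and 3 below. None of the 5 was at an unadjusted p under 0.05, against the same shares of all genes. Bckdha had a log2 fold change of -0.50 and Dbt 0.35 (adjusted p of 0.222 and 0.269 by edgeR), with ranges of -0.72 to -0.26 and 0.17 to 0.48 when a library was left out.

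Called genes were found in the lists that border the members. Of 12 other enzymes of glutamate and glutamine, 7 were above 0 and 5 below, with a median of 0.01, and 3 in each direction were at an unadjusted p under 0.05, against 11.7% of all genes higher and 11.4% lower. Aldh18a1, which starts proline synthesis from glutamate, rose from 969 and 1036 reads in control to 3541 and 3752 with lactate, or from 55.3 ± 1.01 to 190 ± 0.211 CPM (log2 fold change 1.78, SE 0.13, adjusted p of 0.0195 by edgeR). Gpt2, the mitochondrial alanine aminotransferase, which passes an amino group between glutamate and pyruvate, rose from 908 and 1085 reads to 2451 and 2842 (log2 fold change 1.33, SE 0.13, adjusted p of 0.0320 by edgeR). The groups were far apart in both genes. Gls2, a glutaminase, had 46.6 ± 0.614 CPM in control and 26.4 ± 0.183 CPM with lactate, with an adjusted p of 0.0520 by edgeR and 0.0053 by DESeq2.

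Of 8 enzymes of lactate, acetyl-CoA and phosphoenolpyruvate, 7 were tested, 5 were above 0 and 2 below, with a median of 0.47, and 4 were higher and 2 lower at an unadjusted p under 0.05, against 11.7% and 11.4% of all genes. Pck2, the mitochondrial phosphoenolpyruvate carboxykinase, which draws oxaloacetate out of the cycle, rose from 558 and 781 reads in control to 2073 and 2878 with lactate, or from 36.7 ± 6.29 to 129 ± 24.3 CPM (log2 fold change 1.81, SE 0.20, adjusted p of 0.0346 by edgeR). Ldha, the lactate dehydrogenase subunit known for making lactate, had 1182 ± 27.9 CPM in control and 675 ± 57.3 CPM with lactate (log2 fold change -0.81, adjusted p of 0.0578 by edgeR and 0.00096 by DESeq2). Ldhb, the subunit known for the reverse reaction, had 282 ± 22.6 and 389 ± 37.9 CPM (adjusted p of 0.140 by edgeR and 0.197 by DESeq2). Acly, which makes acetyl-CoA from citrate in the cytosol, had 551 ± 20.5 and 368 ± 21.5 CPM, and Acss1, which makes it from acetate in mitochondria, had 42.3 ± 4.25 and 67.5 ± 7.61 CPM (adjusted p of 0.0841 and 0.0771 by edgeR, and 0.0349 and 0.0497 by DESeq2). Among the members, by contrast, the largest fitted change was to 0.551 of the control level, in Pdk2, and none was called. The difference between these lists and the members was not tested.

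Markers were read to see which cells the libraries held. All 8 embryonic stem cell markers had reads in every library, and their summed level was 4540 and 4845 CPM in control and 4900 and 5658 CPM with lactate, with Dppa5a the most abundant by FPKM. Of the 8, 5 had a log2 fold change above 0 and 3 below. Sox2, Zfp42 and Klf4 were higher with lactate at an unadjusted p under 0.05, with log2 fold changes of 0.56, 0.52 and 0.39. None of the 8 had an adjusted p under 0.05 by edgeR. At the unadjusted threshold, here and for the other markers below, 11.7% of all genes were higher and 11.4% lower. Pou5f1 had a log2 fold change of -0.40, Esrrb -0.14 and Tdgf1 -0.0020, none of them at an unadjusted p under 0.05. All 12 feeder fibroblast markers also had reads in every library, with a summed level of 675 and 916 CPM in control and 693 and 754 CPM with lactate and Acta2 the most abundant by FPKM. Of these, 5 had a log2 fold change above 0 and 7 below. Pdgfrb was higher and Col3a1 lower at an unadjusted p under 0.05, with log2 fold changes of 0.56 and -0.90 (adjusted p of 0.105 for both by edgeR, and 0.173 and 0.0397 by DESeq2). Of 8 primitive endoderm markers 6 were tested, and their summed level, most of it Sparc, was 351 and 365 CPM in control and 304 and 282 CPM with lactate. The other 5 markers tested, Pdgfra, Gata4, Gata6, Sox7 and Dab2, had log2 fold changes above 0 and did not overlap between the groups. Of all genes tested, 27.0% were higher with lactate without overlap. Pdgfra and Gata4 were higher and Sparc lower at an unadjusted p under 0.05. The part of feeder and other cells in the members' values was not tested, and in such bulk samples fewer cells of a type and less RNA per cell cannot be told apart.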

How the data were processed

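The submitters' processing notes name cutadapt 1.16 for trimming, STAR, RSEM and the mm10 build. The authors deposited 1 table of raw counts, covering 55335 genes and 1153 transposable element families, and 1 RSEM table a library with expected counts, TPM and FPKM per gene. The TPM were not used. The expected counts were rounded to whole numbers for testing. The version of RSEM and the strand setting of the counting are not given in the sources used here.

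The 4 libraries were grouped as labelled, 2 control and 2 lactate. Counts were analysed in R 4.3.3. Genes were filtered by filterByExpr of edgeR 4.0.16 with condition as the group, scaled by TMM and tested by the quasi-likelihood test in its legacy form, with Benjamini-Hochberg adjustment over 18661 genes and no replicate term. The CPM use the TMM factors, 0.959 and 0.996 for control and 1.00 and 1.04 for lactate. The biological coefficient of variation was 15.9%. The transposable elements stayed out of the test. No fold or test was given for a gene removed by the filter.

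Alternatives were DESeq2 1.42.0, other scalings and filters, a replicate block, the expected counts, limma 3.58.1 on log2(FPKM + 1) and log2(FPKM + 0.1), mitochondrial genes left out, edgeR without its legacy form and each library left out. DESeq2 on the expected counts was chosen after seeing the data. The scripts were tested on simulated data. All members are named, with the reads of each library, log2 fold change, SE and adjusted p for those at an unadjusted p under 0.05 and for the largest change in each group of enzymes. Of the other lists, genes past the adjusted threshold are named, or else the 2 of smallest p. Gls2, Ldha, Ldhb, Acly and Acss1 were added after their values were seen, and 1 gene that the rule names is not reported here. The members and lists were chosen with earlier results of these data known. Positions are from GENCODE M21 on GRCm38, where 55154 gene identifiers were found, copies were found with BLAST 2.17.0 among its transcripts, and promoters are from RefSeq on GRCm38.p6.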

Additional observations from a re-analysis of the deposited data

How the results depend on the processing

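No member was called at more than 2-fold under any alternative, but in the limma fits none of the 20019 genes, or 26211 with no filter, had an adjusted p under 0.05, so that these fits say nothing on the calls. With 1 member higher and 3 lower at an unadjusted p under 0.05 by edgeR, the counts differed under several alternatives, and the cause was not tested. The count of higher members was 3 with upper-quartile factors, 3 with library totals alone, 2 on the RSEM expected counts, and 2 by limma on log2(FPKM + 1) with no filter. The count of lower members was 1 by DESeq2, on the counts and on the expected counts alike, 1 with library totals alone, 5 with no filter on low counts, 1 by limma on log2(FPKM + 1) and on log2(FPKM + 0.1), and 0 by limma with no filter. With RLE factors 1 was higher and 4 lower, and with upper-quartile factors 2 were lower. In both directions together these counts stood below the share of all genes in several fits, at 15.6% against 23.2% with RLE and with upper-quartile factors, 12.5% against 23.1% with library totals, 15.6% against 22.9% on the expected counts, 6.06% against 14.6%, 14.8% and 13% in the limma fits and 6.06% against 9.11% by DESeq2 on the expected counts, while with no filter they were 18.2% against 16.9%. With no filter, 1 member, Pdk2, had an adjusted p under 0.05 (0.0358 by edgeR), where 1647 of 32923 genes did. Leaving out each library in turn gave 0 to 1 higher, 1 to 3 lower and 0 to 1 at an adjusted p under 0.05, which was Pdhb without the first lactate library. The members' share at an unadjusted p under 0.05 was then 3.12% against 15.7% of all genes without the first control library, 6.25% against 14.6% without the second, 6.25% against 17.2% without the first lactate library and 9.38% against 21.5% without the second. The lone library of a group was then assumed to vary like the other group. Where it was the first lactate library that was left out, 960 of all genes had an adjusted p under 0.05, and where it was the second, 1382.

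The replicate numbers are shared by both groups, but the labels do not say that a number marks a shared culture or day. The deviations of same-numbered libraries from their group means correlated at 0.561 over genes, a value from 2 pairs. With a replicate block, 7 members were higher and 11 lower at an unadjusted p under 0.05 and 16 had an adjusted p under 0.05 by edgeR, or 56.2% of the members at the unadjusted threshold against 51.2% of all genes. The block gave 8297 of the 18661 genes an adjusted p under 0.05. Without the block the members' share at the unadjusted threshold was 12.5% against 23.1% of all genes. The block thus moved the members' share from below that of all genes to near it.

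The median log2 fold change of the members, -0.025, was 0.0071 with upper-quartile factors, 0.041 with library totals alone, 0.0244 by limma on log2(FPKM + 1) with or without its filter and 0.0251 on log2(FPKM + 0.1), and from -0.0961 to -0.0153 with a library left out. The scalings moved the median of all genes to at most 0.077. Of 448 member values outside the left-out libraries, 422 kept their direction and 26, in 8 members, reversed. No member that reversed had a size above 0.111 in the main fit. Dlat was -0.0065 by DESeq2, -0.0308 with no filter, -0.0209 on the expected counts and -0.0268 by DESeq2 on these. Pdhx was -0.00999 by DESeq2, -0.0344 with no filter, -0.0134 on the expected counts, -0.0194 by DESeq2 on these, -0.0034 with mitochondrial genes left out, -0.0338 by limma on log2(FPKM + 1) with or without its filter and -0.0354 on log2(FPKM + 0.1). Aco1 was 0.0298 with upper-quartile factors, 0.0632 with library totals, 0.0097 with at least 10 counts in every library, 7.16e-06 with the replicate block, and 0.0699, 0.0725 and 0.0699 in the same limma fits. With library totals Idh3b was 0.0189 and Idh3a 0.0173, and with no filter Sucla2 was -0.0085 and Got2 -0.0091. Pdk4 was 0.40 by limma on log2(FPKM + 1) with or without its filter and 0.54 on log2(FPKM + 0.1). With a library left out, the range crossed 0 for Dlat (-0.0837 to 0.0754), Pdk4 (-0.29 to 0.0702), Fh1 (-0.11 to 0.33), Got2 (-0.0800 to 0.13), Pdhx (-0.0657 to 0.0524), Sucla2 (-0.24 to 0.25), Pcx (-0.32 to 0.13), Idh3b (-0.13 to 0.0120), Aco1 (-0.15 to 0.14), Me1 (-0.0608 to 0.27), Me2 (-0.0222 to 0.17) and Idh1 (-0.17 to 0.0027).

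The tested members had from 72 to 7453 reads in a library, and counting error was not separated from the spread between libraries. Pdk2, Pdk4 and Pdp1, with the fewest reads, had standard errors of 0.20 to 0.25, and Sucla2, with 1682 to 2245 reads, had 0.21.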
